A study of Homo sapiens with 6 samples.

Results

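The set described here holds the LTR elements that were transcribed in the cell line CHLA 04 and had no read in CHLA 05 or CHLA 06. An element was taken when its TPM multiplied by its length was 10000 or more in both CHLA 04 libraries and its TPM was 0 in CHLA 05 and in both CHLA 06 libraries. The rule found 362 of the 720177 annotated LTR elements, or 5.38% of the 6724 elements past the same level in both CHLA 04 libraries. CHLA 02 was the only library that the rule did not use. The members were thus chosen by their levels in the other 5 libraries, which are given as a description and carry no test.

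The data are 6 stranded total RNA libraries of atypical teratoid rhabdoid tumor (AT/RT) lines. The 4 lines are CHLA 04, its comparators CHLA 05 and CHLA 06, and CHLA 02. The study places CHLA 06 in another AT/RT subgroup (group 2) than CHLA 02, CHLA 04 and CHLA 05 (group 1). AT/RT is a malignant brain tumor of young children that usually lacks the chromatin remodeling protein SMARCB1. All lines were patient derived and untreated, and were grown in DMEM:F12 with EGF, bFGF and B-27. CHLA 02 and CHLA 05 had 1 library each, whereas CHLA 04 and CHLA 06 had 2 technical replicates each. Every line was 1 biological sample, so the lines could not be compared by a test, and the spread given between replicates is technical.

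An LTR (long terminal repeat) is the sequence at either end of an integrated retrovirus. It carries the promoter, the polyadenylation signal and the enhancers of the virus. Most human copies are old solitary LTRs that have lost the viral genes, and names ending in -int mark remnants of the internal viral sequence. An LTR can be read from its own promoter, or it can lie within the RNA of a gene or of a long noncoding transcript that starts elsewhere.

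A read in this text is the smallest step of the TPM values after multiplication by element length, and all nonzero values were whole multiples of that step. The LTR elements held 355302 to 511408 reads per library, and the level of 10000 stood for 8 to 12 reads. SMARCB1 transcripts were listed at 13.5 to 26.2 TPM in all 6 libraries, although the study describes these lines as lacking SMARCB1 expression. The source of these values was not tested. VIM, NES and TUBB3, which mark mesenchymal, neural progenitor and neuronal cells, were present throughout. PAX6 was at 15.8 to 36.9 TPM in CHLA 02, CHLA 04 and CHLA 05, and at 0.604 and 0.937 TPM in CHLA 06. SOX2 was at 4.03 TPM in CHLA 05 and at most 0.470 TPM elsewhere. The leukocyte and endothelial genes PTPRC, PECAM1 and CDH5 did not exceed 0.224 TPM. The fibroblast gene COL1A1 was at 387 TPM in CHLA 02 and at 600 and 459 TPM in CHLA 06, against 2.76 and 0.679 TPM in CHLA 04. COL3A1 was likewise at 841 TPM in CHLA 02 and 1332 and 628 TPM in CHLA 06, against 2.91 and 0.231 TPM in CHLA 04. PDGFRB, also a fibroblast gene, went the other way, at 16.1 and 11.9 TPM in CHLA 04 and 23.4 TPM in CHLA 05. It was at 9.41 TPM in CHLA 02 and 4.45 and 3.85 TPM in CHLA 06. The macrophage gene CD68 was at 6.36 TPM in CHLA 02 and 6.34 and 22.6 TPM in CHLA 06, against 0.897 and 0.236 TPM in CHLA 04. The epithelial genes KRT18 and EPCAM were also read in CHLA 02 and CHLA 06, at 2.47 to 28.2 TPM, and did not exceed 0.0854 TPM in CHLA 04. The part of other cells in the results was not tested. For bulk RNA, fewer cells that transcribe an element and less RNA per cell cannot be told apart.

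CHLA 02 stood apart from the other lines in a way that bears on every value given for it. None of the 9409 elements past the level in CHLA 02 was absent from all CHLA 04 and CHLA 06 libraries, whereas 253 elements past the level in CHLA 05 were. Of the elements past the level in both CHLA 04 libraries, 17 had no read in CHLA 02, and of those past it in both CHLA 06 libraries, 22 had none. Over 13151 genes above 5 TPM in a line, CHLA 02 was fitted as 0.347 of CHLA 04 plus 0.568 of CHLA 06 and 0.0227 of CHLA 05, and 37 genes departed from that sum by more than 4-fold. The same fit for CHLA 04, CHLA 05 and CHLA 06 left 896, 1124 and 646 such genes. RNA of CHLA 04 in the CHLA 02 library and elements shared by both lines cannot be told apart from these files. Reads in CHLA 02 are therefore not an independent observation of the set. The set itself does not change without CHLA 02.

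The sequence of 1 member is shown first, from the largest cluster on chromosome 11. MER77 at chr11:109776325-109776596 lay on the minus strand in that cluster, which differed between the CHLA 04 replicates, and had 52 and 31 reads in CHLA 04 and 68 in CHLA 02. Its GRCh38 sequence is printed whole, on the strand of the element from 5′ to 3′. Capitals mark TATAAA, the core of a TATA box, here found on the other strand as TTTATA.

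MER77 on chromosome 11: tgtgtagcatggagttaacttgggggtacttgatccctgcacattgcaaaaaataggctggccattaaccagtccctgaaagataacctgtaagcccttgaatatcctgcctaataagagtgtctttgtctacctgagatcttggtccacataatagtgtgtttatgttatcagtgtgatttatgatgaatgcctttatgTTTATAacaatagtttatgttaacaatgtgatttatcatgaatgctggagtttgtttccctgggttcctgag

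The members held 19202 reads in CHLA 04 replicate 1, 19116 in replicate 2, 16301 in CHLA 02 and, by the rule, 0 in CHLA 05 and both CHLA 06 libraries. This was 5.40%, 3.74% and 3.50% of the LTR reads of the first 3 of these libraries. A member had a median of 20 reads (8 to 1893) in replicate 1, 25 (12 to 1328) in replicate 2 and 19 (0 to 1007) in CHLA 02. The pooled 1343875 LTR reads of CHLA 05 and CHLA 06 allow up to 0.223 reads per 100000 for a count of 0. Against this pooled limit the lower CHLA 04 replicate was at least 10.1-fold higher for every member, with a median bound of 19.3-fold and a highest of 1163-fold. The limit pools both lines and is higher for a single library, at 0.725 in CHLA 05 and 0.669 and 0.623 in CHLA 06. The lowest member value in CHLA 04 was 2.25 reads per 100000, so the bounds against CHLA 05 alone are smaller. These bounds describe the choice of members.

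Members close to the level were few reads apart from the elements left out. The lowest inside were THE1B at chr15:24897582 with 8 and 16 reads in CHLA 04, THE1B at chr7:86798740 with 8 and 17, and LTR7 at chr1:147833885 with 8 and 27. The nearest outside were MSTA at chr15:25288212 with 17 and 11 reads, LTR12 at chr7:37353224 with 11 and 11, and HERVL-int at chr12:83503122 with 12 and 11. A further 184 elements past the level in CHLA 04 were kept out by 1 read in all over CHLA 05 and CHLA 06.

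**Figure D1:**
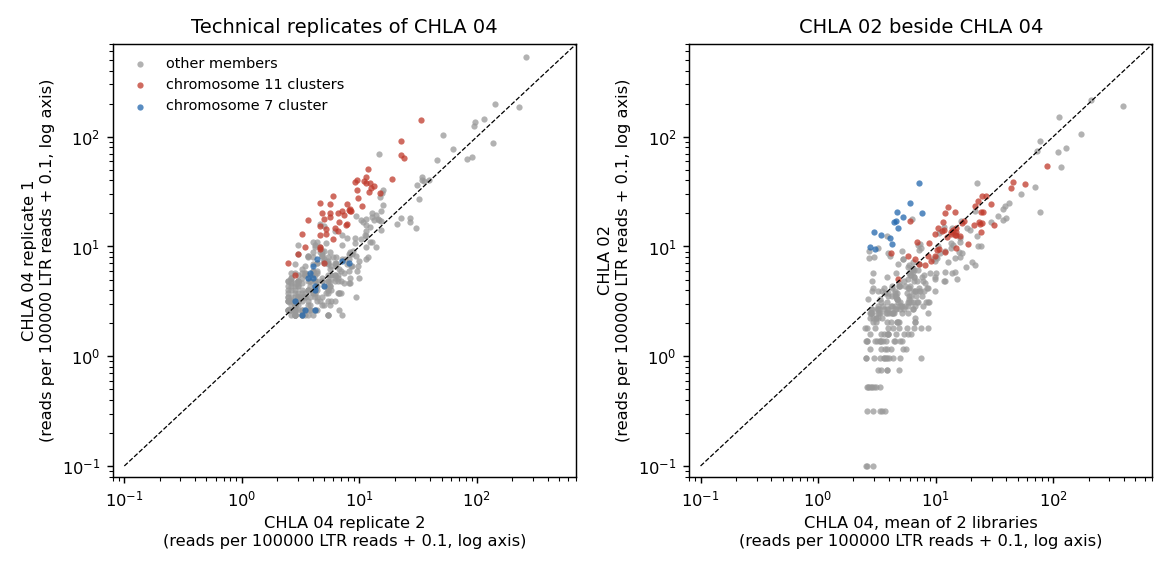
Each point is 1 of the 362 members, in reads per 100000 LTR reads plus 0.1 on log axes, with equality as the dashed line. On the left, the 53 members of the chromosome 11 clusters (red) all lie above the line for the CHLA 04 replicates, and on the right the 14 members of the chromosome 7 cluster (blue) are all higher in CHLA 02 than in CHLA 04.

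The most highly read members came from few places. Of the 20 members with the highest mean reads in CHLA 04, 10 lay on chromosome 13, 5 on chromosome 11 and 3 on chromosome 5, with 1 each on chromosomes 2 and X. The 14 members of the chromosome 13 cluster alone held 29.2% and 34.9% of the member reads in the CHLA 04 replicates and 31.4% in CHLA 02.

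The chromosome 13 cluster spanned 20.6 kb at chr13:22884030-22904607 on the plus strand. It lies over and beside LINC00621, a long noncoding RNA gene on the opposite strand, which was at no more than 0.659 TPM in any library. All LTR elements of the span on the plus strand held 12649 and 15726 reads in CHLA 04, 12661 in CHLA 02, 9 in CHLA 05, with 3 and 0 in CHLA 06. The span therefore held a few reads in CHLA 05 and CHLA 06, on elements that the rule left out.

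The first member of the cluster was a Harlequin-int of 868 bp, the internal sequence of a provirus with LTR2B at its ends. It had 1893 and 1328 reads in CHLA 04 and 891 in CHLA 02, the highest level of the set. The LTR2B directly before it had 2 and 4 reads in CHLA 04 and 3 in CHLA 02 over 470 bp. Reads thus appeared within the first internal element after the 5′ LTR. The next member, Harlequin-int at chr13:22884884-22885841, had 221 and 424 reads in CHLA 04 and 347 in CHLA 02. The LTR2B at the other end of the provirus, a member of 469 bp at chr13:22889379-22889847, had 511 and 582 reads in CHLA 04 and 368 in CHLA 02.

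Downstream of the provirus, the reads went on through elements of other names. MER50 at chr13:22893204-22893715 had 706 and 732 reads in CHLA 04 and 496 in CHLA 02. MER4A1 at chr13:22892801-22893203 had 441 and 482 reads in CHLA 04 and 338 in CHLA 02. These neighbours were higher in CHLA 04 than in CHLA 02. MER4-int at chr13:22900970-22902356 had 669 and 1167 reads in CHLA 04 and 1007 in CHLA 02. MER4-int at chr13:22898528-22899526 had 310 and 703 in CHLA 04 and 703 in CHLA 02. MER4-int at chr13:22896519-22897029 had 233 and 461 in CHLA 04 and 427 in CHLA 02. Per LTR read, the first of these MER4-int copies lay between the CHLA 04 replicates in CHLA 02, and the others lay above both. Closer to the end, MER4-int at chr13:22903971-22904370 had 216 and 234 reads in CHLA 04 and 139 in CHLA 02, and MER4CL34 at chr13:22903608-22903969 had 152 and 175 and 109. The last member of the cluster, LTR49-int, had 30 and 41 reads in CHLA 04 and 14 in CHLA 02.

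The chromosome 5 cluster held a second Harlequin-int provirus, at the start of UBE2D2, which encodes a ubiquitin-conjugating enzyme. Its 4 members lay at chr5:139526347-139531564 on the plus strand, the strand of the gene. The first exon of the UBE2D2 transcript ENST00000511725, at chr5:139526431-139526612, lies inside the first of them. This Harlequin-int (379 bp) had 368 and 262 reads in CHLA 04 and 95 in CHLA 02. The next Harlequin-int (642 bp) had 482 and 492 reads in CHLA 04 and 248 in CHLA 02. Again the LTR2B before them was nearly unread, with 5 and 2 reads in CHLA 04 and 4 in CHLA 02. The LTR2B after them (478 bp) had 272 and 320 reads in CHLA 04 and 163 in CHLA 02. A Harlequin-int of 2736 bp in between had 1493 and 2226 reads in CHLA 04 but was no member, since CHLA 05 and CHLA 06 replicate 1 had 1 read each.

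The transcript of UBE2D2 that starts in Harlequin-int was also listed in the transcript files, from another mapping of the same libraries. Since its first exon lies inside a member, the rule bears on its levels, which are not a separate observation. This transcript was at 24.9 and 34.9 TPM in CHLA 04, 6.15 in CHLA 02, 0.935 in CHLA 05, with 0.394 and 0.178 in CHLA 06. It was thus higher in both CHLA 04 libraries than in any other. The main transcript, ENST00000398733, which starts at chr5:139561166 downstream of the provirus, was at 219 and 234 TPM in CHLA 04, 217 in CHLA 02, 92.8 in CHLA 05, with 79.1 and 82.5 in CHLA 06. The start in Harlequin-int therefore gave the smaller part of UBE2D2 transcripts in every library.

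**Figure D2:**
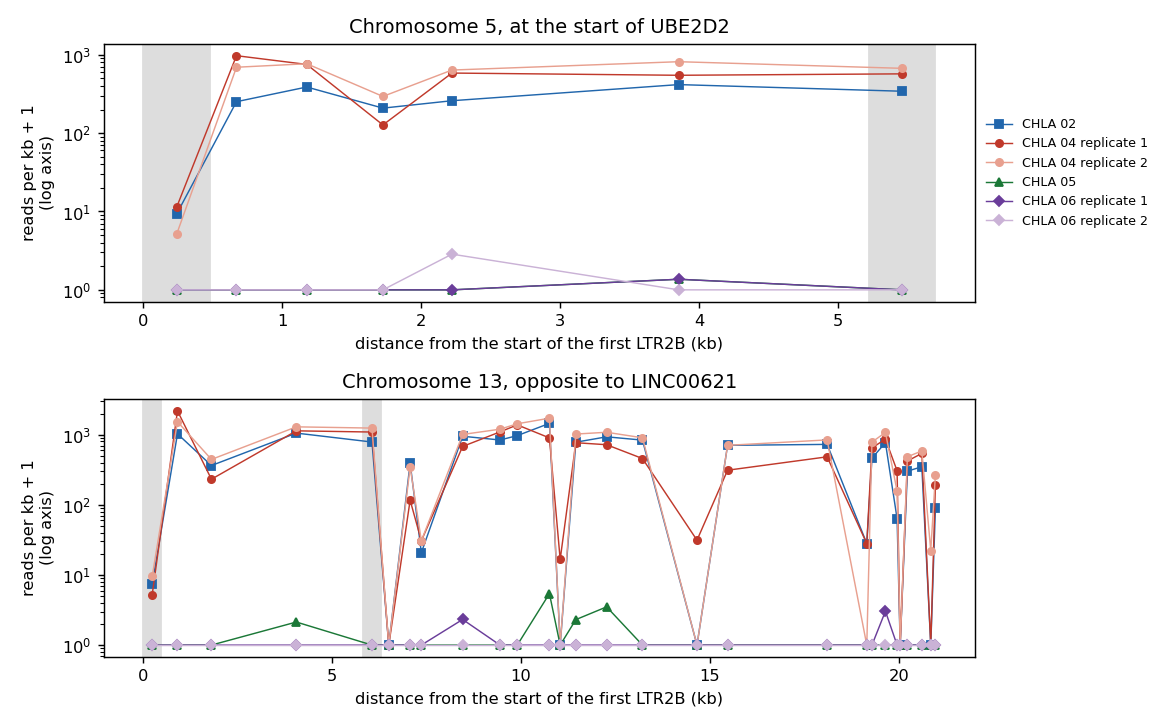
Reads per kb plus 1 (log axis) of the LTR elements on the plus strand, against the distance in kb from the start of the first LTR2B, for each library; grey bands are the LTR2B copies at either end of the provirus. In CHLA 04 and CHLA 02 the first LTR2B is low and the elements after it are high at both loci, while CHLA 05 and CHLA 06 stay at 0 to a few reads.

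The largest stretch lay on chromosome 11, where 53 members in 4 clusters ran over 932 kb on the minus strand, from chr11:109144678 to chr11:110076657. The largest cluster, at chr11:109342337-109843437, had 37 members, of which 26 were inside the long noncoding RNA genes RP11-708B6.2 and RP11-262A12.1. Over the whole stretch, the 126 LTR elements of the minus strand held 12446 and 5847 reads in CHLA 04, 10089 in CHLA 02, 37 in CHLA 05, with 4 and 6 in CHLA 06. The 120 elements of the plus strand held 34 and 48 reads in CHLA 04, 18 in CHLA 02, 28 in CHLA 05, with 34 and 15 in CHLA 06. The excess in CHLA 04 and CHLA 02 was on the minus strand.

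The technical replicates of CHLA 04 differed in this stretch more than elsewhere. THE1A-int at chr11:109901299-109902850 had 504 and 172 reads in replicates 1 and 2 and 251 in CHLA 02. THE1A-int at chr11:109804215-109805780 had 326 and 114 reads and 172 in CHLA 02. MLT1A at chr11:110039618-110039992 had 244 and 116 reads and 179 in CHLA 02. In each of them CHLA 02 lay between the replicates. MSTA at chr11:110076257-110076657, the first element of the stretch on its strand, had 226 and 121 reads and 160 in CHLA 02. MER11C at chr11:109187576-109188643, an LTR of the HERVK11 group that leads the last cluster, had 151 and 58 reads and 133 in CHLA 02. Between the clusters, THE1D-int, one of a pair, at chr11:109290040-109291649 had 245 and 74 reads and 116 in CHLA 02. All 53 members were higher per LTR read in replicate 1, by a median of 2.88-fold (1.44 to 5.57). Among the other 309 members, 188 were higher in replicate 1, with a median ratio of 1.10 (0.320 to 4.77). Each of the 4 chromosome 11 clusters was 2.63- to 3.74-fold higher in replicate 1, against a median of 1.16 over the 35 clusters of 3 or more members, and 1 cluster elsewhere, at chr12:83306430-83344085, exceeded 2-fold. The gene RP11-708B6.2 showed the same in the transcript files, at 29.6 and 6.64 TPM in replicates 1 and 2, 7.87 in CHLA 02 and 0 in CHLA 05 and CHLA 06. Of the genes around the stretch, DDX10 (32.6 and 30.9 TPM), an RNA helicase gene, and RDX (481 and 476 TPM), which encodes radixin, were alike in both replicates. Others were less so. ZC3H12C, the nearest gene past chr11:110076657, was at 0.754-fold of replicate 2 in replicate 1. EXPH5, on the far side of DDX10, was at 1.88-fold, and KDELC2 at 0.736-fold. In GENCODE release 44, RDX and the gene ENSG00000289465 overlapped members of the clusters at chr11:109900920-109919725 and chr11:109981586-110076657. ENSG00000289465 also overlapped members of the largest cluster. The cause of the difference between these replicates was not tested.

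The X chromosome cluster also had 37 members, at chrX:26564448-26932140 on the plus strand, and no gene of Ensembl release 82 covered any of them. In GENCODE release 44, 33 of them lay within the pseudogene VENTXP1. The 64 elements on the plus strand held 2140 and 2547 reads in CHLA 04, 1362 in CHLA 02, 3 in CHLA 05, with 3 and 0 in CHLA 06. Its highest member, LTR81B at chrX:26581467-26582270, had 143 and 199 reads in CHLA 04 and 85 in CHLA 02. The replicates were close here, with replicate 1 at 1.21-fold of replicate 2 per LTR read. RPL7P58, a ribosomal protein pseudogene within the cluster and nearest to 25 of the members outside genes, was at 15.3 and 5.73 TPM in CHLA 04, 3.75 in CHLA 02 and 0 in CHLA 05 and CHLA 06.

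The chromosome 7 cluster was 1 of 2 clusters that were higher per LTR read in CHLA 02 than in both CHLA 04 libraries. The other was the cluster of 3 members in NRXN3, at 1.40-fold of the CHLA 04 mean, while 23 clusters were lower in CHLA 02 and 10 lay between the CHLA 04 libraries. It had 14 members at chr7:37491931-37690627 on the plus strand, from the region beside ELMO1 into the first part of EPDR1. The elements on that strand held 306 and 422 reads in CHLA 04 but 1585 in CHLA 02, with 0 in CHLA 05 and 1 and 0 in CHLA 06. Per LTR read, CHLA 02 was 4.04-fold of the CHLA 04 mean, against a median of 0.614 over all 35 clusters. All 14 members were higher in CHLA 02 (44 to 176 reads) than in either CHLA 04 library (8 to 41 reads). The first of them, an LTR12D of 966 bp, had 26 and 36 reads in CHLA 04 and 176 in CHLA 02, the highest count of the cluster in CHLA 02. The highest in CHLA 04, MLT1C at chr7:37538449-37538888, had 25 and 41 reads there and 93 in CHLA 02.

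**Figure D3:**
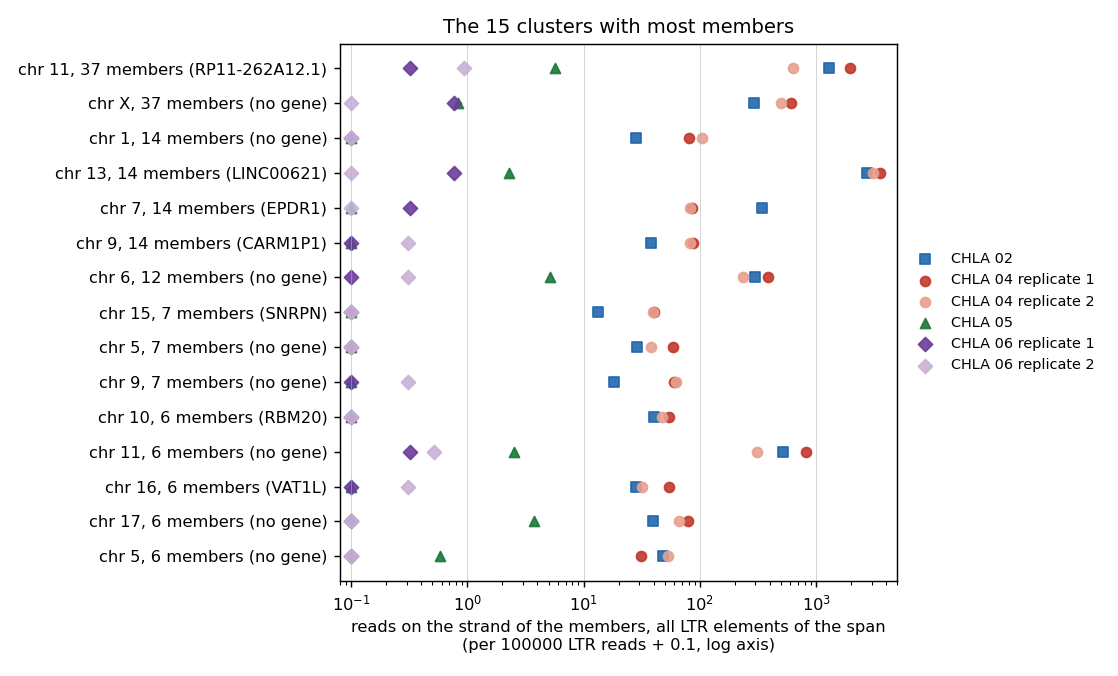
Reads on the strand of the members, summed over all LTR elements of the cluster span, per 100000 LTR reads plus 0.1 (log axis), for the 15 clusters with most members and each of the 6 libraries. CHLA 04 and CHLA 02 lie far to the right of CHLA 05 and CHLA 06 in every cluster shown, and the chromosome 7 cluster has CHLA 02 above both CHLA 04 libraries.

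Such clusters held most of the set. Members on 1 chromosome were joined where neighbours were at most 50 kb apart, which gave 35 clusters of 3 or more members with 273 members (75.4%), 22 pairs and 45 lone members. With a gap of 10 kb the share in such clusters was 36.7%. All 35 clusters had their members on 1 strand only. The joining was not done for other elements past the level, so neither trait is shown to be particular to the set. The spans, 4.42 to 501 kb long, also held 303 other LTR elements on the strand of the members and 528 on the other strand. The elements of the other strand had 17 and 34 reads in CHLA 04, against 35484 and 35289 on the strand of the members. In CHLA 02 the counts were 27 and 31807. Of the 303 elements that were no members, 215 and 227 had a read in CHLA 04, 217 in CHLA 02, 80 in CHLA 05, but only 13 in each CHLA 06 library. Those same-strand neighbours held 18025 and 18110 reads in CHLA 04 and 17024 in CHLA 02, but 128 in CHLA 05 and 14 and 13 in CHLA 06. Neighbours in a cluster may lie on the same RNA molecule, so members are not independent observations.

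Of the 35 clusters, 19 with 139 members touched no gene of Ensembl release 82. On chromosome 1, the 14 members at chr1:147687041-147845618 had their highest, MER21-int at chr1:147840545-147840952, at 26 and 50 reads in CHLA 04 and 11 in CHLA 02. On chromosome 6, the 12 members at chr6:122843363-122919881, downstream of the sphingomyelin phosphodiesterase-like gene SMPDL3A, were led by MLT2B2 with 72 and 65 reads in CHLA 04 and 79 in CHLA 02. SMPDL3A itself was at 34.2 and 51.0 TPM in CHLA 04 and 29.6 TPM in CHLA 05. On chromosome 5, clusters of 5, 3 and 6 members lay in a row from chr5:103647082 to chr5:104007579. They were led by MLT1M (13 and 35 reads in CHLA 04, 22 in CHLA 02), MLT2A2 (19 and 28, 20) and MLT1E3-int (18 and 50, 45). All of these 3 clusters were lower per LTR read in replicate 1, the reverse of chromosome 11, at 0.584-, 0.828- and 0.587-fold of replicate 2.

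On chromosome 17, clusters of 5, 6 and 5 members lay between chr17:70757939 and chr17:71387286 on the minus strand, with the noncoding RNA gene CASC17 (3.56 and 2.81 TPM in CHLA 04) between the second and the third. HERVL-int led the first with 49 and 31 reads in CHLA 04 and 26 in CHLA 02, MLT2D the second with 24 and 27 and 16, and MER21B the third with 25 and 22 and 19. Their spans held 13, 15 and 14 reads in CHLA 05 and 0 or 1 in each CHLA 06 library. CHLA 05 was thus not free of reads in this region. On chromosome 9, 7 members at chr9:2846776-2891363 and 14 at chr9:2991639-3162217 lay on the minus strand, the strand of CARM1P1. The first group is beyond the end of this pseudogene, and the second runs over its first part and the region before it. The first group was led by ERV3-16A3_I-int with 64 and 116 reads in CHLA 04 and 33 in CHLA 02. LTR1A2 led the second with 74 and 77 in CHLA 04 and 30 in CHLA 02. Near the end of chromosome 5, 7 members at chr5:175701296-175784146 and 4 at chr5:175885695-175917688 flanked the complexin gene CPLX2 on the strand opposite to it. MSTA-int had 39 and 22 reads in CHLA 04 and 13 in CHLA 02, and MLT1F2 had 30 and 24 and 13. CPLX2 did not exceed 0.305 TPM in any library.

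Among smaller clusters outside genes, the highest member on chromosome 2, MER54A at chr2:91794124-91794539, had 139 and 180 reads in CHLA 04 and 80 in CHLA 02, but its sequence is largely repeated in the genome. Also outside genes, ERVL-E-int at chrX:40864597-40865057 had 96 and 164 reads in CHLA 04 and 78 in CHLA 02. HERVL-int at chr2:75392747-75395507 had 44 and 58 reads and 42 in CHLA 02. HUERS-P3b-int at chr16:29710182-29710490 had 39 and 65 reads and 22 in CHLA 02. In all of these CHLA 02 had fewer reads than either CHLA 04 library. On chromosome 12, MSTA-int at chr12:83342663-83344085 had 36 and 15 reads and 10 in CHLA 02. In the cluster at chr6:68328317-68404577, with 1 member in RP11-406O16.1, MLT1D had 23 and 49 reads and 21 in CHLA 02.

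The sequence of most members could be told from the rest of the genome. Windows of 125 bases, the read length, were counted over the genome without alternate contigs, and in 345 of 362 members (95.3%) every window centred on the element occurred once. In 7 members fewer than 50% of windows did, and 5 of these lay on chromosome 2 between 91.8 and 92.0 Mb, where MER54A had 39.9% of its windows unique. The members of the chromosome 11 cluster of 37, of the X chromosome cluster of 37 and of the chromosome 7, 13 and UBE2D2 clusters had unique windows throughout.

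Fewer members lay inside genes than other elements at the same level. Of the members, 147 (40.6%) overlapped an Ensembl gene, against 79.7% of the other 6362 elements past the level in both CHLA 04 libraries. Among members inside genes of 1 strand, 122 of 137 (89.1%) ran in the direction of the gene, compared with 94.5% among the others. Introns held 140 members and exons 7. In GENCODE release 44, which has more noncoding genes, 214 members lay inside a gene, 205 of them with a gene on their strand. The 215 members outside Ensembl genes were a median of 60523 bp (519 to 252800) from the nearest gene. Of these, 30 were within 10 kb and 56 more than 100 kb away.

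Genes that held members were more often higher in CHLA 04 than genes in general. A gene was counted as higher where log2(TPM + 1) of the lower CHLA 04 library exceeded that of the highest CHLA 05 or CHLA 06 library by 2 or more. This held for 32 of the 48 host genes with 1 TPM or more in a library (66.7%), against 1.28% of all 16343 genes tested. The median difference was 3.06 over the host genes and -0.46 over all genes. In 42 of the 48 (87.5%) both CHLA 04 libraries lay above all 3 others, against 27.1% of all genes. In none did every CHLA 05 and CHLA 06 library exceed both CHLA 04 libraries by that margin. The gene values come from the same libraries that the rule used. Introns are not part of the annotated transcripts, but introns and exons can be read from the same RNA. Each host was chosen through an element read in CHLA 04 and absent in CHLA 05 and CHLA 06. The contrast with all genes therefore describes the choice of members and is no test.

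Hosts were also counted by the orientation of their members. Of the 42 host genes on the strand of a member, 31 (73.8%) were higher in CHLA 04, while 1 of the 6 that held only members of the opposite strand was, a difference that was not tested. That 1 gene was BASP1, a growth cone protein gene, at 350 and 233 TPM in CHLA 04 and 23.7 TPM in CHLA 05. XPR1 (124 and 133 TPM in CHLA 04, 129 in CHLA 05), a phosphate exporter gene, and PCCA (46.8 and 47.5 against 101), a propionyl-CoA carboxylase gene, held opposite members and were not. TFPI, an inhibitor of blood coagulation, with 2 opposite members, was at 7.79 and 16.1 TPM in CHLA 04, 11.6 in CHLA 05, but 319 and 462 in CHLA 06. The CHLA 05 value lay between those of CHLA 04. LYPD1, with 1 opposite member, was at 113 and 67.5 TPM in CHLA 04 and 22.1 and 14.5 in CHLA 06, above all other lines but short of the margin.

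Some of the hosts with 2 or more members are known from nerve cells or cell adhesion, a grouping made after their values were seen. NCAM1, the neural cell adhesion molecule, was at 469 and 201 TPM in CHLA 04, 73.9 in CHLA 02, 1.14 in CHLA 05, with 0.0735 and 0.0434 in CHLA 06. GRM3, a metabotropic glutamate receptor gene with 5 members, was at 97.0 and 84.6 TPM in CHLA 04, 34.3 in CHLA 02, 1.75 in CHLA 05 and at most 0.0274 in CHLA 06. GRIK2, a kainate receptor gene with 3 members, was at 300.1 and 196 TPM in CHLA 04, 132 in CHLA 02, 20.7 in CHLA 05, with 0.0898 and 0.0991 in CHLA 06. In these genes the order was CHLA 04, CHLA 02, CHLA 05 and CHLA 06. NRXN3, a presynaptic adhesion gene with 4 members, was at 32.9 and 26.6 TPM in CHLA 04, 26.9 in CHLA 02 and at most 0.173 in the others. THE1D, the highest of its cluster of 3 members, had 12 and 12 reads in CHLA 04 and 26 in CHLA 02, and the other member, LTR12D at chr14:79631287, had 17 and 15 reads in CHLA 04. IGSF11, an immunoglobulin-like adhesion gene, was at 231 and 176 TPM in CHLA 04, 111 in CHLA 02 and 3.38 in CHLA 05. DAB1, an adaptor of reelin signaling, was below the margin, at 16.8 and 16.3 TPM in CHLA 04 and 4.70 in CHLA 05.

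Other host genes had different roles and the same pattern. VAT1L on chromosome 16, with 10 members in 2 clusters led by MSTA (32 and 24 reads in CHLA 04, 22 in CHLA 02) and LTR16 (23 and 29, 25), was at 257 and 159 TPM in CHLA 04, 170 in CHLA 02 and at most 1.02 in the others. TMTC2, an O-mannosyltransferase gene with 6 members led by MLT1A1 (84 and 80 reads, 66 in CHLA 02), was at 419 and 228 TPM in CHLA 04, 193 in CHLA 02 and 4.51 in CHLA 05. RBM20, a splicing regulator gene with 6 members led by MLT1A0 (62 and 74 reads, 51 in CHLA 02), was at 102 and 76.7 TPM in CHLA 04, 45.7 in CHLA 02 and 0.869 in CHLA 05. FGD3, a guanine nucleotide exchange factor gene with 4 members led by MLT1B (61 and 67 reads, 23 in CHLA 02), was at 225 and 117 TPM in CHLA 04, 46.0 in CHLA 02 and at most 0.577 in the others. In all of them, CHLA 05 and CHLA 06 lay below every CHLA 04 and CHLA 02 value. CYYR1 (3 members led by MLT1J2 with 19 and 31 reads, 23 in CHLA 02), ELMO1 (3), ROR1 (3), VIT (2), ANKRD33B (2), KIFC3 (2) and SLCO3A1 (2) were also higher in CHLA 04, by 2.93 to 5.67 on the log2 scale. CARM1P1, a pseudogene with 7 members, was at 19.0 and 10.3 TPM in CHLA 04, 2.75 in CHLA 02 and 0 in the others.

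MLK7-AS1, an antisense RNA gene now named MAP3K20-AS1, had 3 members on its strand. They include the LTR12C at chr2:173281738-173283149 that holds its annotated start, which had 31 and 42 reads in CHLA 04 and 14 in CHLA 02. The transcript that starts there was at 10.99 and 13.6 TPM in CHLA 04, 7.30 in CHLA 02, 0.121 in CHLA 05, and was listed at 0 for CHLA 06. Since its first exon lies mostly inside this LTR12C, the rule bears on these levels. The gene on the other strand, listed as pk and now named MAP3K20, was at 8.29 and 13.5 TPM in CHLA 04 and 31.7 and 42.0 TPM in CHLA 06. The antisense gene and the sense gene thus had opposite orders between CHLA 04 and CHLA 06. Of the 7 members over an exon, this LTR12C and the Harlequin-int of UBE2D2 were the only ones that held the start of a transcript.

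**Figure D4:**
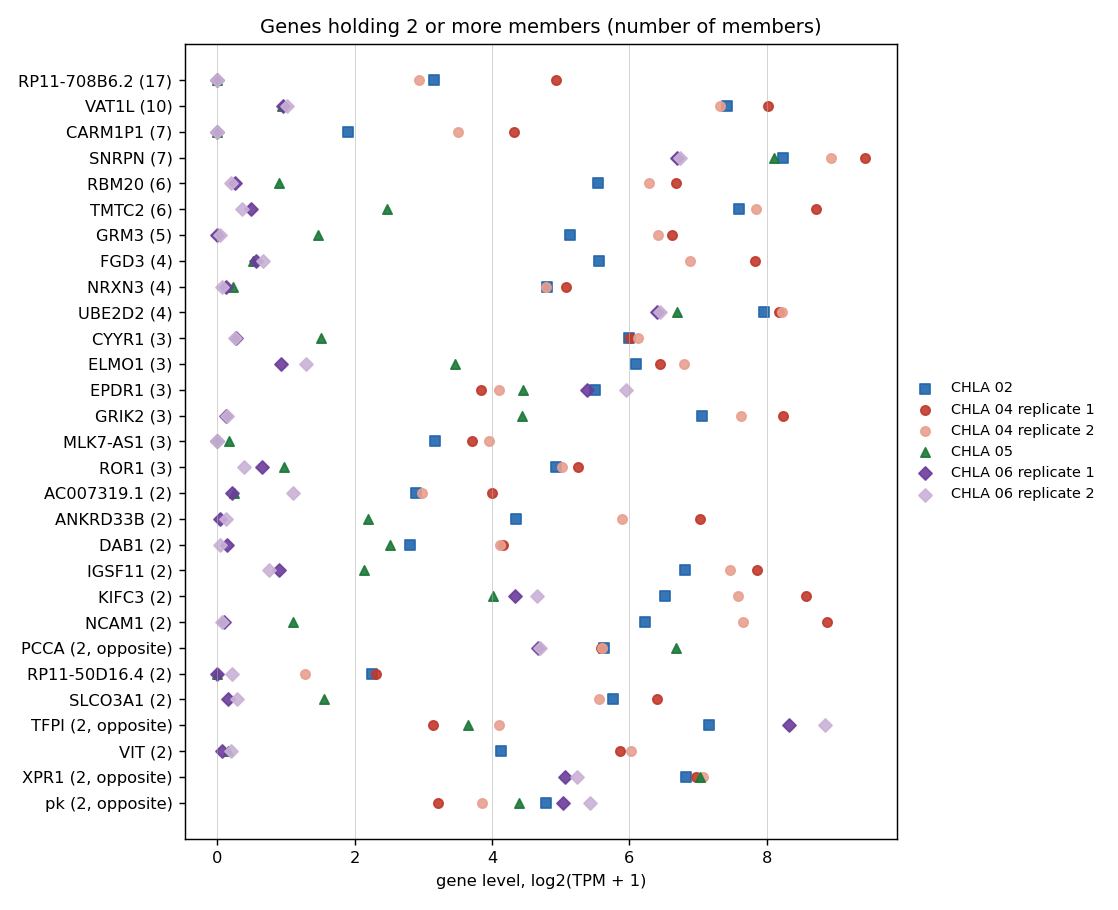
Gene level as log2(TPM + 1) in each library for the 29 genes with 2 or more members and 1 TPM or more in a library, with the number of members in brackets and "opposite" where all members lie on the other strand. Most genes have CHLA 04 and CHLA 02 at the right and CHLA 05 and CHLA 06 near 0, while EPDR1, TFPI and pk have CHLA 06 above CHLA 04.

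Some host genes of the members' own strand did not follow the members. SNRPN, an imprinted gene for a spliceosomal protein, held 7 members led by MLT1A1-int (42 and 40 reads in CHLA 04, 18 in CHLA 02). It was at 690 and 491 TPM in CHLA 04 and 301 in CHLA 02, but also at 274 in CHLA 05 and 103 and 105 in CHLA 06, where the members had no read. EPDR1, an ependymin-related gene with 3 members, was at 13.4 and 16.2 TPM in CHLA 04 and at 40.6 and 60.7 in CHLA 06. TRIM2, a ubiquitin ligase gene with 1 member, was at 595 and 439 TPM in CHLA 04 and 114 in CHLA 05. For these genes the host was read in lines where the member was not. AC007319.1, also named CALCRL-AS1, reached 15.1 and 6.87 TPM in CHLA 04 and 1.15 in CHLA 06. RP11-50D16.4 was at 3.96 and 1.42 TPM in CHLA 04 and at most 0.163 in the others apart from CHLA 02. RP11-262A12.1, GPR141, CYYR1-AS1 and PDZPH1P, which also held 2 or more members, were under 1 TPM in every library.

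Of the 35 genes nearest to members outside genes and with 1 TPM or more in a library, 14 (40%) were higher in CHLA 04. Over all genes tested, 1.28% were. The median difference was 0.999 over the 35 genes and -0.46 over all genes. The 35 genes include RP11-708B6.2, CARM1P1, ELMO1, IGSF11, ROR1, VAT1L and WBSCR17, which are host genes too, so the counts are not separate. The difference from the hosts was not tested.

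CHLA 02 had a read in 359 of the 362 members (99.2%, 95% Wilson interval 97.6 to 99.7) and was past the level in 270. This is close to the 99.7% of all elements past the level in both CHLA 04 libraries that had a read in CHLA 02. When the same rule was turned to CHLA 06, 836 of the 848 elements found (98.6%) had a read in CHLA 02, but when it was turned to CHLA 05, 35 of 253 (13.8%) had one and 0 were past the level. The 3 members without a read in CHLA 02 were MER72 in TRIM2, MSTB at chr1:147791189 and MLT1L at chr9:2846776. With CHLA 02 in the place of CHLA 04, the rule took 382 elements, of which 378 had a read in both CHLA 04 libraries and 270 were members.

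Per LTR read, a member in CHLA 02 was at a median of 0.668 of its mean in CHLA 04. CHLA 02 was lower than both CHLA 04 libraries for 220 members, between them for 93 and higher than both for 49. Across the 362 members, which share libraries and clusters, log2 levels of CHLA 02 and CHLA 04 had a Pearson correlation of 0.783, and those of the CHLA 04 replicates 0.832. Of the host genes, 28 of 48 (58.3%) were higher in CHLA 02 than in CHLA 05 and CHLA 06 by 2 on the log2 scale, against 0.704% of all genes. The host genes and the elements therefore shared the order of CHLA 02 and the other lines, within the limit given at the start. Since the hosts were chosen through elements absent in CHLA 05 and CHLA 06, this share too is a description.

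The members were of many kinds. They had 134 names, 68 of them with 1 member, and were led by THE1B (17), MLT1D (16), THE1D (13), MSTA (12), MLT1A0 (11), MLT1C (11), MLT1I (10) and MSTB (10). THE1C had 9 members, HERVL-int 8, ERVL-E-int and MLT1L 7 each, and MLT1A1 6. Harlequin-int, MER4-int, MLT1A, MLT1K, MLT2A2, MSTA-int and THE1A had 5 each. MLT, MST and THE names belong to old ERVL-type repeats, which are common in introns and between genes.

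Shares of the name groups were near those of all elements past the level in CHLA 04. MLT1 names made up 30.4% of members and 27.0% of those elements, THE1 names 15.5% and 12.4%, and MST names 10.2% and 9.31%. Names of MLT2, HERVL and ERVL made up 10.2% and 6.22%. The widest gap in the other direction was for names of HERV-K groups, at 0.829% (3 members) and 5.00%. None of the 54 elements named HERVK-int or LTR5_Hs past the level in CHLA 04 was a member. They made up 0.803% of all elements past the level, of which 5.38% were members. So few elements allow no statement about these names. LTR12 names, which contain known promoters of the HERV9 group, made up 1.38% of members (5) and 2.36% of elements past the level. Of these 5 members, 2 are LTR12B entries on chromosome Y, 22285 and 11893 bp long, with sequence partly repeated in the genome. Internal sequences made up 19.9% and 20.9%.

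**Figure D5:**
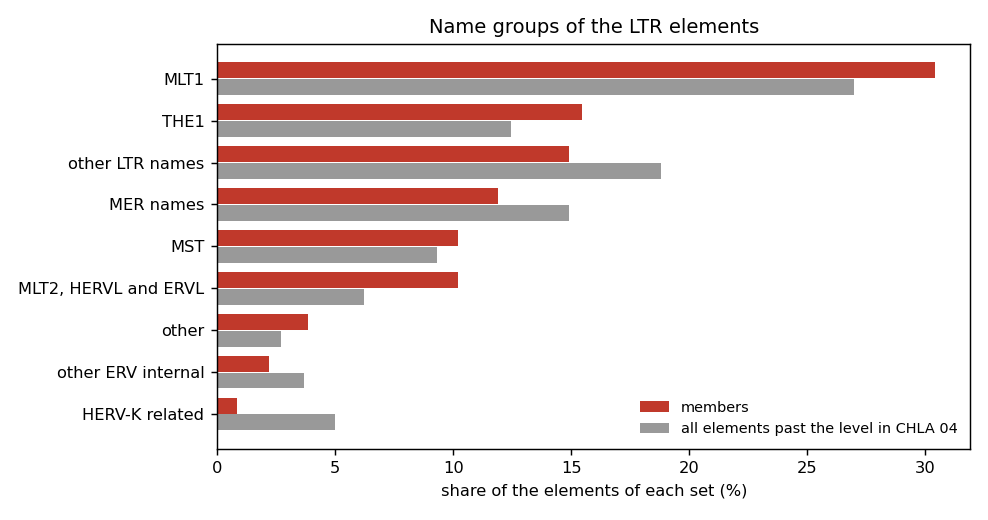
Share in percent of each name group among the 362 members (red) and among the 6724 elements past the level in both CHLA 04 libraries (grey). MLT1 names lead both sets at 30.4% and 27.0%, and HERV-K related names are at 0.829% of members against 5.00%.

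Chromosome 11 held 58 members, which was 18.2% of its elements past the level, and the X chromosome 41 (17.0%), against 5.38% for all chromosomes. Chromosome 5 followed with 35 and chromosomes 1 and 9 with 28 each. Chromosome 19 held 0 members among 356 elements past the level. These counts follow the clusters, since the chromosome 11 and X clusters alone held 53 and 40 members.

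The members were a median of 405 bp long (119 to 22285), against 448 bp for all elements past the level and 330 bp for all LTR elements. The longest, an LTR12B entry on chromosome Y, had 53.8% of its windows unique, and the LTR12B beside it, of 11893 bp, had 46.7%. The median GC content was 44.1% for the members, 45.2% for elements past the level and 43.6% for all LTR elements. Motifs were searched on both strands, and overlaps between motifs were allowed. Among elements from 200 up to, but not including, 600 bp, TATAAA was in 47.9% of 282 members, 39.4% of elements past the level and 38.3% of all LTR elements. AATAAA was in 44.3%, 44.5% and 45.5%. CACGTG, the E-box that MYC can bind, was in 6.74%, 7.15% and 6.14%, and GGGCGG, the core of a GC box, in 3.90%, 5.39% and 4.21%. Among the 62 members of 600 bp or more, TATAAA was in 66.1% and AATAAA in 66.1%, against 56.8% and 70.98% of elements past the level, while CACGTG was in 9.68% against 12.2% and GGGCGG in 6.45% (4 members) against 20.4%. These differences were not tested.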

How the data were processed

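The authors sequenced total RNA of 4 AT/RT lines as stranded paired-end reads of 125 bases and called bases with CASAVA 1.8.2, per the labels. Per the labels and the study's methods, FastQC and Trimmomatic preceded mapping to GRCh38 with the CLCbio Genomics Workbench at default parameters. The authors deposited TPM per Ensembl release 82 transcript and, from a separate mapping, TPM per RepeatMasker LTR element, scaled over LTR elements alone, so gene TPM and LTR TPM are on different scales. Program versions other than that of CASAVA are not given in the sources used here.

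Reads were recovered as multiples of the smallest step of TPM times length, and the recovery was tested on simulated counts, where at least 99.998% of values were exact and 200 of 200 planted elements were found. One read on a 1000 bp element was worth 0.899 to 1.34 TPM. Gene TPM was the sum over transcripts, compared as log2(TPM + 1). Wilson intervals and the limit of 3 counts for a count of 0 cover counting error only. The intervals treat members as independent, which those of 1 cluster are not. Elements were named as the 20 highest members, the highest member of each cluster of 3 or more, names with 5 or more members, and genes with 2 or more members. Other genes and elements are named because a result turned on them. The members and lists were chosen with earlier results of these data known. Libraries were grouped by the line named in the labels, and no test between lines was made. The alternatives tried were other levels, other gaps and annotations, other pseudocounts and filters on gene TPM, and leaving out each replicate library. Analysis used Python 3.11.15, pandas 2.3.3, numpy 2.4.6 and samtools 1.23.1. Some sequences are not reported here.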

Additional observations from a re-analysis of the deposited data

How the results depend on the processing

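Other settings were tried for 6 results, 77 values in all, of which 62 moved by less than 1.5 times (the number of members) or stayed within the 95% interval of the reported share. The number of members was 681 at a level of 5000, 181 at a level of 20000 and 588 with up to 1 read allowed in each CHLA 05 and CHLA 06 library. Without a CHLA 04 or CHLA 06 library it was 386 to 529, and 345 with every window unique. The share with a read in CHLA 02 was 95.2% at 5000 and 100% at 20000, and 97.7% to 99.2% without a library. The share inside a gene was 49.1% with up to 1 read allowed, 46.1% without chromosomes X and Y, 1.93% for exons and 59.1% with GENCODE 44 genes, with which 95.2% had the orientation of the gene. With Ensembl genes and without a library, the shares inside a gene and in its orientation were 41.7% to 43.1% and 87.2% to 89.8%. The share in clusters was 70.2% at 5000, 36.7% with a gap of 10 kb and 81.2% with 100 kb, and 71.6% to 75.5% without a library. Host genes higher in CHLA 04 were 85.4% at a difference of 1 (4.05% of all genes) and 66.7% to 83.0% without a library, the highest without CHLA 04 replicate 2. GENCODE 44, unique windows and leaving out the chromosome 11 clusters were added after seeing the data. The causes of these moves were not tested beyond what each setting itself changes. No paired analysis was possible because no test was made and each cell line was 1 biological sample. Depth limits the set, since the level stood for 8 to 12 reads and a count of 0 allows 3.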
